A study of Arabidopsis thaliana with 6 samples.

Results

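The transcripts described here are 185 probe sets, of 22746 on the ATH1 array of Arabidopsis thaliana, whose signals were high together on wild type replicate 1 and atm mutant replicate 2. They were selected on measured values. The lower of these 2 signals had to be at least 2 times the highest signal of the other 4 arrays, and at least 50. Before families were left out 188 probe sets met this rule. The mitochondrial gene atp9 was then removed as an organelle gene, and UGT88A1 and CYP71B26 by the start of their symbols, since glycosyltransferases, cytochromes P450, glutathione S-transferases and WRKY factors were left out. The share taken by the rule was 0.821% of the probe sets it was applied to. This share and the height of the signals on the 2 arrays describe the choice and are not results.

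Total RNA of whole plants at growth stage 1.04 was hybridised to 6 arrays, 3 of wild type Col0 plants and 3 of a mutant line. The titles write this line as atm, the genotype as AtATM3 mutant and the source name as ATM1, so which allele it carries is unsure. ATM is the protein kinase that signals DNA double-strand breaks, and the series was set up to find X-ray inducible transcripts that need it. The labels state no irradiation for any sample, and they do not say that replicates came from separate cultures. Both genotypes were grown on 0.5 x MS medium with 1% phytoagar and 1% sucrose at 22 °C, in 9 h of light and 15 h of dark. The 2 arrays that chose the members thus come from different genotypes and carry different replicate numbers, and what sets them apart from the other 4 cannot be read from the labels.

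STZ, also called ZAT10, encodes a zinc finger protein of the C2H2 type that represses transcription and is known as a rapid responder to salt, drought, cold and wounding. Auxin is held in check in plants by enzymes that couple it to amino acids or sugars, and genes of the GH3 family of such enzymes are themselves switched on by auxin. Plant cells also make small reactive carbonyls under oxidative stress, which are reduced in the plastid by enzymes such as AOR. Genes of each of these kinds were among the members.

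Only 66 of the 185 members had 1 named gene, each a different gene. Another 4 matched several genes and 115 were unnamed in the annotation used here. Names thus covered 35.7% of the members and 59.4% of all probe sets, so what follows on functions speaks for the smaller portion of the members. Of the 66 named genes 15 carried a descriptive name, and the other 51 had a locus code alone. No count of functions among the members was set against the genome, and no group of them is called particular to the 2 arrays.

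The 185 members had a median signal of 228 on the array of wild type replicate 1 and of 224 on that of atm mutant replicate 2. Wild type replicates 2 and 3 had medians of 62.0 and 57.9, and atm mutant replicates 1 and 3 had 55.9 and 63.6. The signal is the authors' deposited MAS5 intensity on a linear scale, and the medians of whole arrays lay between 40.1 and 41.4. The ratio of the lower of the 2 high signals to the highest of the other 4, which is called the ratio from here on, had a median of 2.50 and ran from 2.00 to 33.2. It was between 2 and 3 in 115 members, between 3 and 5 in 42, between 5 and 10 in 22, and 10 or more in 6. Most members lay close to the threshold, as the plot of the signals that chose them shows.

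**Figure D1:**
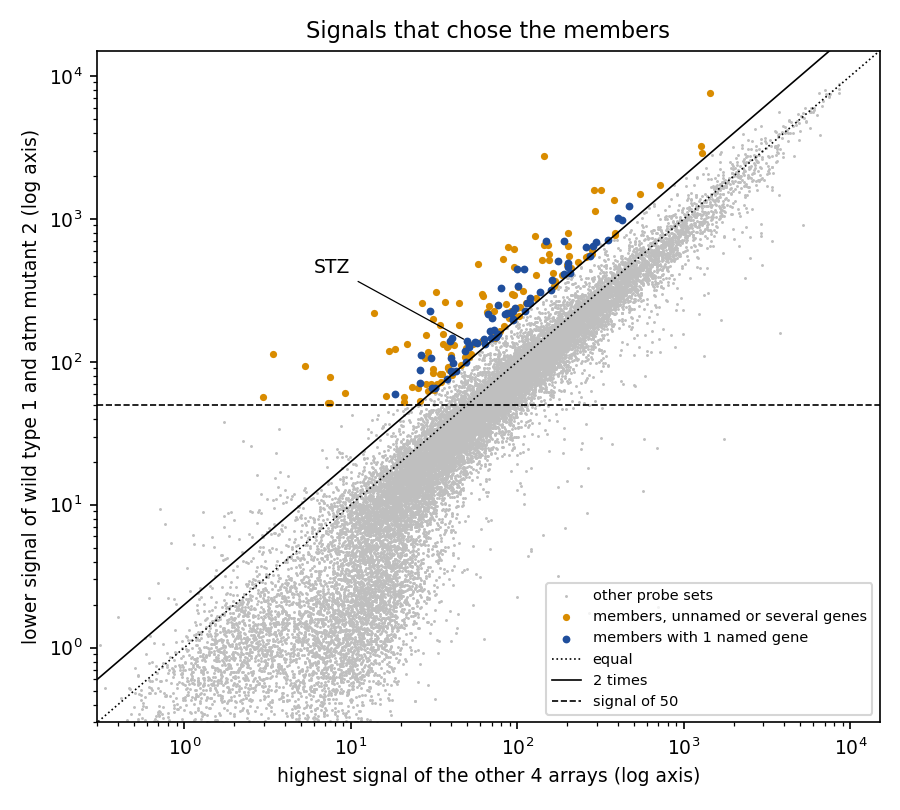
Each point is 1 probe set, with the highest signal of the other 4 arrays on the x axis and the lower signal of wild type replicate 1 and atm mutant replicate 2 on the y axis, both deposited intensities on log axes. Members lie above the solid line of 2 times and the dashed line of 50, and the dimmest probe sets fall outside the axes. Points above the solid line and the dashed line are members by construction, except those left out as an organelle gene or by family symbol. STZ sits near the solid line, at a ratio of 2.79.

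Among the members that regulate genes, STZ had signals of 307, 42.9 and 50.003 on wild type replicates 1, 2 and 3, and of 33.4, 139.5 and 30.8 on atm mutant replicates 1, 2 and 3. Both high arrays stood clear of the other 4, with a ratio of 2.79, but wild type replicate 1 was more than 2 times as high as atm mutant replicate 2. That difference, 1.14 on the log2 scale, was the highest in this direction among the 185 members.

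BIM1 encodes a basic helix-loop-helix factor that works with BES1 in brassinosteroid signalling. Its signals were 309.5, 97.6 and 122 on the wild type arrays and 136, 321 and 115 on the mutant arrays, in replicate order, with a ratio of 2.27. HIS1-3 encodes a linker histone known for its induction by drought and abscisic acid. It had 382, 161 and 154 on the wild type arrays and 147, 373 and 149.9 on the mutant arrays, a ratio of 2.31. In both genes the 2 high arrays were nearly level with each other. The other linker histone named on the array, HON4, ran the other way, with 291 and 322 on the 2 arrays and 372 to 511 on the other 4.

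The brightest named member was WES1, also called GH3.5, which couples auxin to amino acids. Its signals were 1274, 409 and 390.0 on wild type replicates 1, 2 and 3 and 468, 1235 and 429.7 on atm mutant replicates 1, 2 and 3, with a ratio of 2.64. The other 4 arrays lay within a narrow band. IAGLU encodes a glucosyltransferase that attaches glucose to auxin, and it stayed among the members because its symbol does not start with UGT. It had 157, 64.3 and 48.8 on the wild type arrays and 77.0, 189.9 and 70.9 on the mutant arrays, a ratio of 2.04. ARL, or ARGOS-like, promotes cell expansion downstream of brassinosteroid. It had 777, 171 and 222 on the wild type arrays and 257, 631 and 256 on the mutant arrays, a ratio of 2.46. IAGLU was the higher on atm mutant replicate 2, while WES1 and ARL were the higher on wild type replicate 1.

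Members of the same families did not all share this pattern. Of 5 GH3 genes named on the array, GH3.3 missed the rule at a ratio of 1.86, with 357 and 376 on the 2 arrays and 129 to 192 on the other 4. GH3.17, at 137 to 160 over all 6 arrays, and GH3.9 and GH3.1, both under 21 on every array, did not lie above the other 4 on both arrays. These families were chosen after the members' names had been seen.

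Plastid functions were represented by AOR and CaS. AOR, the alkenal/one oxidoreductase that reduces reactive carbonyls, had 527, 109.6 and 96.0 on wild type replicates 1, 2 and 3 and 77.8, 446 and 103 on atm mutant replicates 1, 2 and 3, a ratio of 4.07. CaS, a calcium sensing protein of the thylakoid membrane that takes part in stomatal closure, had 1007, 341 and 376 on the wild type arrays and 404, 1145 and 397 on the mutant arrays, a ratio of 2.49. WES1 and CaS were the named genes among the 12 members with a signal of at least 1000 on both arrays. AOR stood farther above its level on the other 4 arrays than CaS did.

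SIS, named Salt Induced Serine rich in the reference, was among the named members with the highest ratios. Its signals were 484, 99.2 and 93.3 on the wild type arrays and 53.9, 448 and 77.1 on the mutant arrays, a ratio of 4.52. Both high arrays were more than 4 times as high as any of the other 4 arrays, which themselves differed by less than 2 times.

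Transport was represented by AT3G21670, which encodes NPF6.4 of the NRT1/PTR family of nitrate and peptide transporters, and by the sugar transporter gene SWEET2. AT3G21670 had 169, 30.5 and 15.5 on the wild type arrays and 22.0, 106 and 2.87 on the mutant arrays, a ratio of 3.46. Its low values were uneven, and that on atm mutant replicate 3 lay below the 20th percentile of the array, 7.26. SWEET2 had 86.5, 39.8 and 39.6 on the wild type arrays and 39.6, 93.0 and 40.2 on the mutant arrays, a ratio of 2.15, so that its other 4 arrays were almost level.

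SWEET2 was the single member among 16 SWEET probe sets. SAG29, which is SWEET15, reached a ratio of 2.23 but failed the minimum signal, with 46.8 and 52.6 on the 2 arrays and 9.80 to 21.0 on the other 4. Of the 10 probe sets for NPF transporters beside NPF6.4, 3 were above all of the other 4 arrays on both high arrays, as were 14.9% of all probe sets. The highest of them was AT2G26690, at a ratio of 1.25.

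Protein turnover was represented by ATL8 and ATSBT5.2. ATL8 encodes a RING-type protein of the ATL family of ubiquitin ligases and had 281, 87.6 and 94.7 on the wild type arrays and 58.8, 226 and 66.5 on the mutant arrays, a ratio of 2.38. ATSBT5.2 encodes a subtilisin-like serine protease and had 135, 57.6 and 50.1 on the wild type arrays and 52.9, 168 and 30.5 on the mutant arrays, a ratio of 2.35. ATL8 was the higher on wild type replicate 1 and ATSBT5.2 on atm mutant replicate 2. Of 4 ATL probe sets ATL8 was the member, and of 9 subtilase probe sets ATSBT5.2. Of the 3 remaining ATL probe sets 1, ATL5, was above all of the other 4 arrays on both arrays, at a ratio of 1.39. Of the 8 remaining subtilase probe sets 0 were, beside 14.9% of all probe sets.

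MGL, methionine gamma-lyase, breaks methionine down and had 764, 312 and 350.4 on the wild type arrays and 255, 717 and 255 on the mutant arrays, a ratio of 2.05. On the other 4 arrays both mutant signals lay below both wild type signals. In a fit of those 4 arrays alone this difference did not pass the test (limma adjusted p = 0.14). The rule set a ceiling on these values, and the order had been seen beforehand, so this is a description and no finding. The same order, mutant below wild type, held in 36 of the 185 members, and the opposite order in 50. How often either order fell over all probe sets was not counted, so nothing about the members is read from these numbers. AT2G31110, named TRICHOME BIREFRINGENCE-LIKE 40, belongs to a family known for acetylating cell wall polysaccharides. It had 144, 53.2 and 60.005 on the wild type arrays and 53.3, 153 and 62.7 on the mutant arrays, a ratio of 2.29. A second probe set for this gene missed the rule with a ratio of 1.78, at 55.5 and 53.9 on the 2 arrays and 20.2 to 30.3 on the other 4. Of the 22 probe sets for other genes of that family 4 were above all of the other 4 arrays on both arrays, beside 14.9% of all probe sets.

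The 51 members known by a locus code alone had a median ratio of 2.39, from 2.00 to 7.59, and their lower high signal ran from 59.3 to 989. The annotation used here gives no function for them, and none is stated. AT3G28220 had the highest ratio of any named member, 7.59. Its signals were 228, 30.02 and 19.3 on the wild type arrays and 26.5, 247 and 7.63 on the mutant arrays. AT5G48490 followed with 697, 103 and 110.4 on the wild type arrays and 133, 821 and 149 on the mutant arrays, a ratio of 4.67. Both genes were higher on atm mutant replicate 2 than on wild type replicate 1.

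AT3G01060 had 156, 13.6 and 16.7 on the wild type arrays and 26.3, 112 and 11.1 on the mutant arrays, a ratio of 4.27. AT1G73480 had 328, 80.2 and 67.8 on the wild type arrays and 77.0, 435 and 75.5 on the mutant arrays, a ratio of 4.10. AT1G66100 had 723, 174 and 165 on the wild type arrays and 189.9, 700.1 and 189.5 on the mutant arrays, a ratio of 3.69. In AT1G66100 the other 4 arrays lay within 25 units of signal of each other, whereas AT3G01060 was dim and uneven there.

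AT1G80130 was the named gene that leaned most to atm mutant replicate 2. It had 87.3, 23.6 and 12.1 on the wild type arrays and 25.9, 178 and 17.5 on the mutant arrays, a ratio of 3.37, with a difference of -1.03 on the log2 scale between wild type replicate 1 and atm mutant replicate 2. The brightest of the locus codes was AT5G12050, with 989, 426 and 309.9 on the wild type arrays and 364, 1152 and 417 on the mutant arrays, a ratio of 2.32. STZ and AT1G80130 were the named members in which the 2 high arrays were at least 2 times apart, and they leaned in opposite directions.

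**Figure D2:**
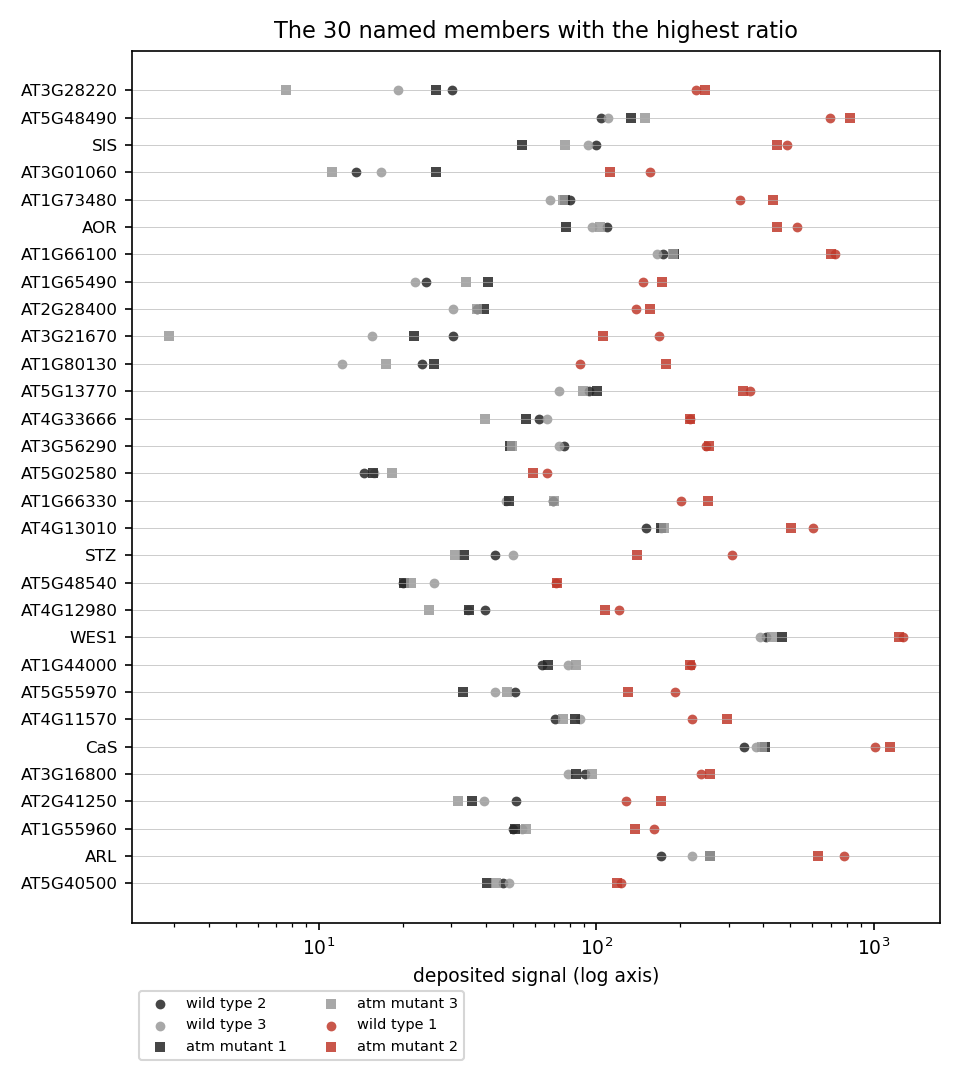
Deposited signals on a log axis of the 30 named members with the highest ratio, ordered from the highest ratio at the top, with 1 point per array; red points are wild type replicate 1 (circle) and atm mutant replicate 2 (square), and dark and light grey points are the other 4 arrays. In every row both red points lie to the right of all grey points, as the rule demands, and STZ and AT1G80130 show the widest gap between their red points.

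The members of highest ratio had no name. All 6 with a ratio of 10 or more were unnamed, as were 21 of the 22 between 5 and 10. The highest ratio, 33.2, belonged to a probe set at 113 and 125 on the 2 arrays and between 1.53 and 3.42 on the other 4, far below the 20th percentile of those arrays. Ratios over such dim values are uncertain. A second unnamed probe set was not dim on any array. It had 2931 and 2758 on the 2 arrays and 109 to 145 on the other 4, a ratio of 19.1. The brightest member of all, also unnamed, had 7664 and 7586 against 1028 to 1436. These 3 probe sets were chosen after their values had been seen. Over the 115 unnamed members the median ratio was 2.84.

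Within the pair of high arrays, wild type replicate 1 was the higher of the pair in 109 members and atm mutant replicate 2 in 76, and the median difference was 0.04 on the log2 scale, from -1.11 to 1.14. In 173 members the 2 signals were within 1.5 times of each other, and in 4 they were at least 2 times apart. The median size of the difference was 0.17 on the log2 scale, beside 0.16 in other probe sets with a signal of 50 or more on both arrays. The rule used both of these signals, so the values describe the choice and are no finding about the members.

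**Figure D3:**
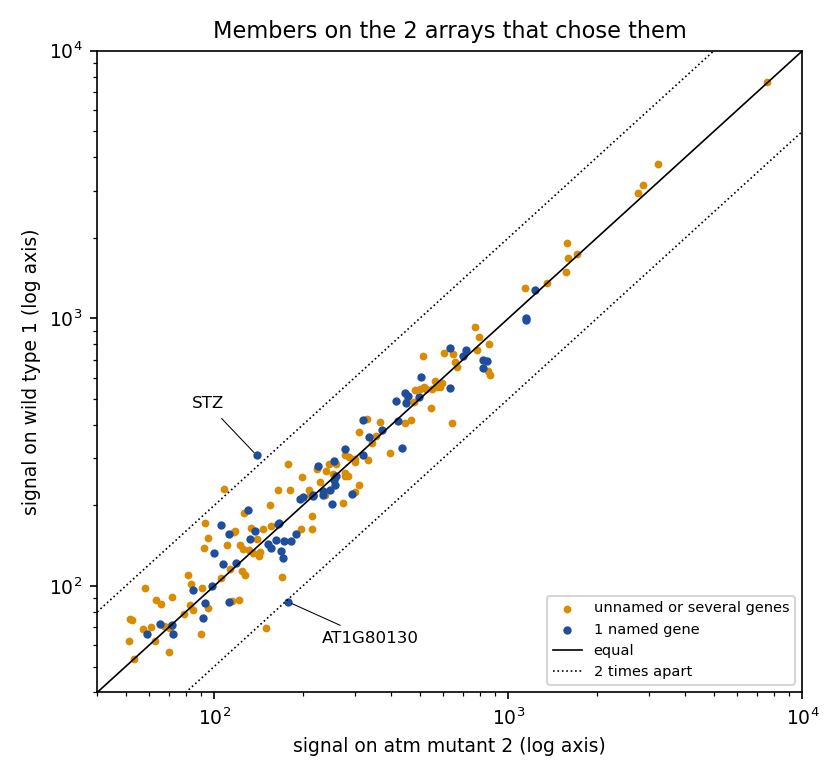
Signal on wild type replicate 1 (y axis) against atm mutant replicate 2 (x axis) for the 185 members, both deposited intensities on log axes, with a solid line where they are equal and dotted lines where they are 2 times apart. Of the 185 members 173 lie within 1.5 times of the solid line, and STZ and AT1G80130 are the named genes beyond the dotted lines.

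On the other 4 arrays, whose highest signal the rule also used, the highest and lowest signals of a member were within 1.5 times of each other in 113 members and within 2 times in 153. The highest of the 4 fell on wild type replicate 2 in 45 members, on wild type replicate 3 in 40, on atm mutant replicate 1 in 52 and on atm mutant replicate 3 in 48, so that no single array set the comparison. On all 4 of these arrays 137 members were above the 40th percentile and 18 were below it, of which 6 were below the 20th. Most members thus had signals above the dim end of the distribution on the low arrays as well.

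Several controls also moved with the 2 arrays. The control for 25S ribosomal RNA was low on both, at 836 and 2123, where the other 4 arrays had 4106 to 5400. The 5' probe set of ubiquitin had 1302 and 1264 against 771 to 883. The GAPDH ratio of 3' to 5' signal, 1.41 and 1.49, fell within the 1.08 to 1.56 of the other 4. For actin this ratio was 11.1 and 9.33 against 8.35 to 9.94, so only wild type replicate 1 lay outside. For ubiquitin it was 2.717 and 2.325 against 2.716 to 3.254, so only atm mutant replicate 2 lay outside. The part of these controls in the result was not tested. Over all 22746 probe sets 14.9% were higher on both arrays than on any of the other 4, and 14.9% were lower on both. The mirrored rule, in which the lowest of the other 4 is at least 2 times the higher of the 2 arrays and at least 50, took 94 probe sets.

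Marker genes of plant organs were checked because the samples were whole plants. Of 24 markers in 5 lists 6 were measured by name. The leaf marker RCA, Rubisco activase, the 1 of 5 leaf markers with a name, had 6177 and 5520 on the 2 arrays and 4133 to 5177 on the other 4. The root marker PYK10, an abundant beta-glucosidase, had 2957 and 2931 against 3248 to 3624. The 3 named root markers out of 6 summed to 3024 and 3007 on the 2 arrays and to 3334 to 3712 on the other 4. PYK10 made up nearly all of this sum. EXPA18 was also lower on both arrays, at 41.1 and 41.6 against 54.8 to 63.0. EXPA7 overlapped, with 25.7 and 34.1 against 21.9 to 44.8. The 2 named guard cell markers out of 4 summed to 48.7 and 66.0 against 70.5 to 89.8, but neither was below all of the other 4 arrays on both arrays. FAMA had 36.1 and 52.1 against 48.1 to 71.2, and SPCH had 12.6 and 13.9 against 13.4 to 25.4. No flower or seed marker had a name. Of the 6 named markers 1 was above all of the other 4 arrays on both arrays and 2 were below, beside 14.9% each way over all probe sets. With so few markers nothing about the make-up of the samples is read from these counts. None of the named markers was at 0, and their part in the result was not tested. In RNA of whole plants, fewer cells of a type and less RNA per cell cannot be told apart.

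Genes of stress and hormone pathways were read from 18 lists of 312 genes, of which 53 were measured by name, STZ and WES1 among them. These were the members, and they lie above the other 4 arrays by the rule. Of the other 51 genes 13 were higher on both arrays than on all of the other 4 and 9 were lower on both, beside 14.9% above and 14.9% below over all probe sets. Of the 13513 probe sets with 1 named gene, the more alike background, 1773 were above and 1885 below. The median ratio of the 53 was 0.74, that of all probe sets 0.71 and that of probe sets with 1 named gene 0.68. The coverage is thin, and 3 lists, those for salicylic acid defence, for mRNA decay and for trehalose phosphate and gibberellin catabolism, had no gene measured by name.

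Of the 5 named genes of the C2H2 and CCCH zinc finger list, ZAT5 had a ratio of 1.44, at 116, 67.7 and 66.3 on the wild type arrays and 54.5, 104 and 72.6 on the mutant arrays. ZAT4, ZAT9 and ZAT18 were dim, under 19 on every array. Beside STZ, then, 1 relative leaned the same way and the others had signals too low to order. In the auxin early response list 3 of 8 genes were measured by name. WES1 was above the other 4 arrays by the rule, and the remaining genes, GH3.3 and IAA29, were above them on both arrays as well, as were 14.9% of all probe sets. IAA29, a repressor of auxin-responsive genes, had a ratio of 1.11, with 529 and 529.9 on the 2 arrays and 363 to 475 on the other 4.

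In the list of ERF, DREB and RAV factors 2 of 7 named genes, ORA47 and ERF019, were above the other 4 arrays, beside 14.9% of all probe sets. ERF019 was dim, at 14.4 and 9.77 on the 2 arrays against 1.08 to 8.07. ORA47, a factor that activates jasmonate synthesis genes, had 39.7 and 30.3 on the 2 arrays and 5.87 to 17.5 on the other 4, a ratio of 1.73. ERF107, which was bright on all arrays, overlapped the other 4, with 881 and 1237 against 1143 to 1240. In the jasmonate list OPCL1, which activates precursors of jasmonate in the peroxisome, had 96.4 and 129 against 58.5 to 66.3, a ratio of 1.46. PDF1.2 was above as well but dim, at 8.20 and 25.2 against 1.08 to 5.71, a ratio of 1.44. THI2.1 overlapped the other 4, and JMT was dim and below them, at 0.486 and 0.505 against 0.578 to 1.84. None of these reached the rule.

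Of 13 named calcium-binding proteins 2 were above the other 4 arrays on both arrays and 2 below, beside 14.9% each way over all probe sets. CML40, above, and CML23, below, were dim. CML40 had 1.21 and 4.43 on the 2 arrays against 0.285 to 0.625, and CML23 had 3.05 and 2.05 against 8.30 to 12.2. CML38, a calmodulin-like protein, had 24.5 and 19.2 against 2.38 to 10.4, a ratio of 1.85 at signals under the minimum. KIC, a calcium-binding regulator of a kinesin, had 629 and 629 against 1130 to 1369. Among cold and drought genes COR15B, which protects chloroplast membranes in the cold, had 38.8 and 38.9 against 107 to 172, and COR47, a dehydrin, had 1093 and 1228 against 1465 to 2144. XERO2, another dehydrin, had 227 and 272 against 184 to 204. The touch and cell wall list held XTH19, a xyloglucan-modifying enzyme, at 151 and 104 against 75.3 to 98.7, and EXO, a brassinosteroid-responsive growth gene, at 1399 and 873 against 1445 to 2358. Genes of these lists therefore lay on both sides of the other 4 arrays, as the plot of the lists shows.

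**Figure D4:**
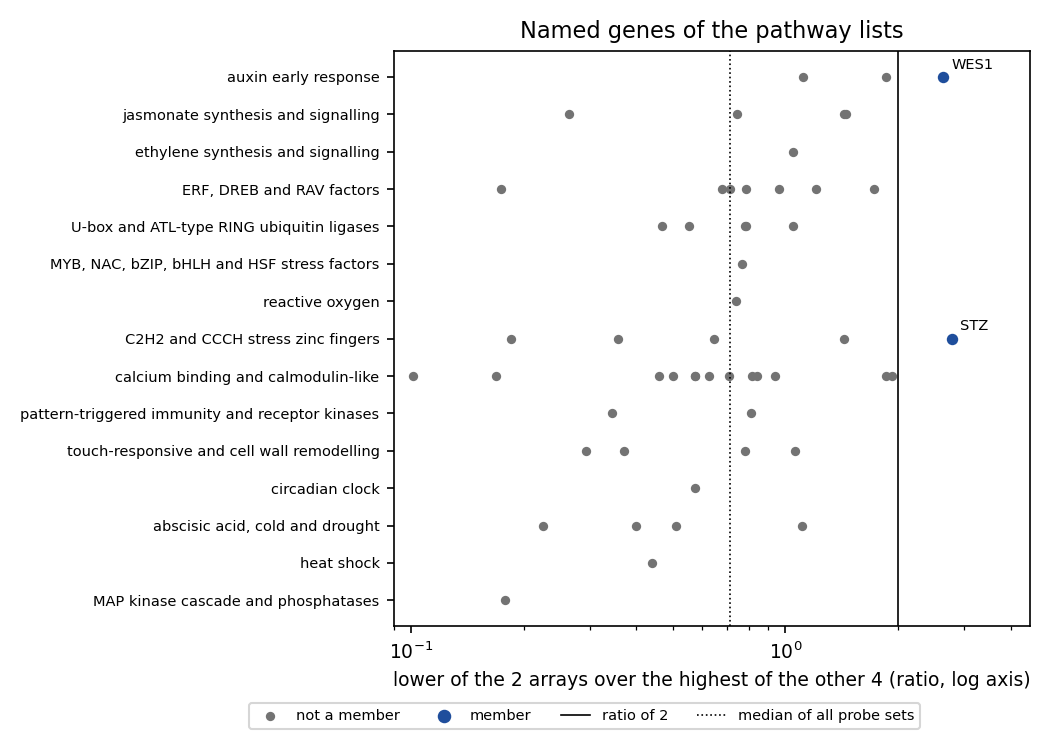
Each point is 1 named gene of the pathway lists, placed by its ratio of the lower of the 2 arrays to the highest of the other 4 on a log axis; lists without a named gene are not drawn. STZ and WES1 lie beyond the solid line at a ratio of 2, and the dotted line marks the median of all probe sets, 0.71.

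The named genes of the smaller lists were mixed. EIN3, a central factor of ethylene signalling, had 576 and 655 on the 2 arrays and 499 to 551 on the other 4, a ratio of 1.05. GI, a circadian clock protein, had 174 and 158 against 202 to 275. BZIP60, a factor of the response to unfolded proteins, had 179.5 and 133 against 130.1 to 173, and so overlapped. BIK1, a kinase of immune signalling, had 159.8 and 174 against 190.2 to 197, and EFR, an immune receptor of the same list, was under 4 on every array. HSP22, a small heat shock protein, was at 9.45 and 11.3 against 10.9 to 21.5. UPOX had 34.3 and 26.4 against 32.6 to 35.8, and AP2C2 was under 12 on every array. In the list of U-box ubiquitin ligases PUB24 had 47.4 and 56.7 against 29.6 to 45.3, and PUB22 had 26.6 and 34.1 against 35.8 to 56.7.

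Near the threshold the choice of members was a matter of small differences. Just inside it were AT5G08350 with a ratio of 2.00, AT5G61670 with 2.00 and AT5G37990 with 2.02. Just outside were AT2G34930 with 1.99, AT1G62510 with 1.99 and AT4G29780 with 1.98. AT1G62510 was bright, with 2217 and 1737 on the 2 arrays and 668 to 873 on the other 4. AT2G07707 had 76.0 and 91.5 against 28.6 to 37.6, but its probe set may also match a copy in the mitochondrial genome and its value is uncertain.

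The named members came from all 5 nuclear chromosomes, with 18, 13, 9, 10 and 16 genes on chromosomes 1 to 5. AT4G12980 and AT4G13010 lay near each other, with 2 protein-coding genes between them. AT4G12980 had 121, 39.8 and 34.4 on the wild type arrays and 34.7, 107 and 24.9 on the mutant arrays, a ratio of 2.69. AT4G13010 had 603, 151 and 171 on the wild type arrays and 171, 503 and 175 on the mutant arrays, a ratio of 2.87.

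The comparison of genotypes says little about these transcripts, because each genotype holds 1 of the 2 high arrays. Within a genotype the median SD of the members was 0.99 on the log2 scale over 3 arrays. Of the 185 members 167 passed the filter on dim probe sets. Limma called 0 of them at an adjusted p under 0.05, beside 0.223% called of all 13895 probe sets tested. An unadjusted p under 0.05 was reached by 0 of them, beside 467 of the 13895. Subtracting wild type from atm mutant gave these members a median log2 difference of 0.03, and all probe sets tested 0.01. It moved to 0.59 in members without wild type replicate 1 and to -0.55 without atm mutant replicate 2. The choice of members fixes both the wide spread and this shift, so the absence of calls does not show that the genotypes were alike. An exact permutation test of 3 arrays against 3 could not give a two-sided p below 0.1.

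The 4 arrays on which the members were low can be compared by genotype without the high signals in the fit. The rule still set a ceiling on these values. Calls of single members in it are therefore given as descriptions and are no finding about the members. In that fit limma called 1.68% of the probe sets tested, and 2 of the 167 members, both higher in the atm mutant. That count is no larger than the share over all probe sets gives, and the filter that left 167 counted the 2 high arrays, so nothing about the members is read from it. AT2G39980 had signals of 52.0 and 55.8 on wild type replicates 2 and 3 and of 114 and 89.8 on atm mutant replicates 1 and 3, with 292 and 256 on the 2 high arrays. Its log2 difference over the 4 arrays was 0.91 (SE 0.18, limma adjusted p = 0.0248). The other was an unnamed probe set with a log2 difference of 0.75 (SE 0.17, limma adjusted p = 0.0437). With 2 arrays a group these calls rest on few samples, and neither passed over all 6 arrays (adjusted p = 1.00 for both). The log2 differences there were 0.54 (SE 0.68) and 0.72 (SE 0.86), with the high arrays that the rule chose adding to the spread.

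STZ had a log2 difference of -0.73 (SE 0.84, limma adjusted p = 1.00) over the 6 arrays. Over the 4 low arrays it was -0.53 (SE 0.25, limma adjusted p = 0.39), with 42.9 and 50.003 on the wild type and 33.4 and 30.8 on the mutant arrays. The mutant arrays lay below the wild type arrays there, but the difference did not pass the test. Without wild type replicate 1 its sign turned, to 0.18 (SE 0.62).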

How the data were processed

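The values deposited by the authors are linear signal intensities. Per the submitters' processing notes they come from GCOS and its MAS5 algorithm, which combines the probes of a set into 1 signal. Neither the scaling target nor detection calls are given in the sources used here. MAS5 signals near 0 are noisy, which inflates ratios over dim values. Precision is limited by the number of arrays. The rule was applied to the deposited intensities with no further scaling. Of the 22746 probe sets that were not controls, 22537 remained once organelle genes and the excluded families were left out. Names came from the platform annotation, with symbols updated through the RefSeq table of TAIR10.1. For 13436 of 13513 probe sets with 1 gene the gene ID matched.

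Genotypes were compared on log2 intensities with limma 3.58.1 in R 4.3.3, with an intensity trend and Benjamini-Hochberg adjustment over the 13895 probe sets above their array's 40th percentile on at least 3 arrays. The fit was tested on simulated data. Groups came from the titles. Nothing says that replicates were separate cultures, so p-values may reflect technical spread alone. Same-numbered arrays were not shown to be pairs.

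The members and lists were chosen with earlier results of these data known. Named genes were STZ, the 30 named members of highest ratio, genes of the lists, and the 3 probe sets on each side of the threshold. The word patterns for function classes matched 4 named members, 1 of them only through letters inside another word. Role groups, families and other genes with a descriptive name were therefore added after the values had been seen. Promoters and proteins were not analysed here. The alternatives varied scaling, thresholds, low values, weights, pairing and the arrays used.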

Additional observations from a re-analysis of the deposited data

How the results depend on the processing

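The number of members was 185 as reported, 422 at a ratio of at least 1.5, 70 at a ratio of at least 3, and 118 with the 40th percentile of each array added to every signal. Of the 66 named members 39 still met the rule with this pseudocount, the lowest at a ratio of 1.57. Quantile normalization gave 180 members, 179 of them among the 185, median centring 174, a minimum signal of 25 gave 208 and of 100 gave 145. Leaving out 1 array gave between 196 and 266 members, with 255 without wild type replicate 1 and 266 without atm mutant replicate 2, where the remaining high array stood alone. Leaving out an array can only add members or raise a ratio, and a pseudocount can only lower one toward 1, so these settings could not turn a direction. Of 594 ratios of named members 76 moved by more than the SD between the other arrays.

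The count of members called by genotype was 0 and stayed 0 when any 1 array was left out (0 to 0). It was 2 without both wild type replicate 1 and atm mutant replicate 2. Over all probe sets 31 were called, 73 with array weights, 233 without both of these arrays and 13 to 36 when 1 array was left out. With the replicate number as a block 11 were called, all among the 31, and 0 members. Deviations of same-numbered arrays from their group means correlated at -0.461, -0.46 and 0.379, so the numbers were not shown to pair the samples. The cause of these changes in count was not tested. The search of promoters for motifs was not run. Depth does not apply to arrays. Signals near 0, as in the unnamed members of highest ratio, limit how far their ratios can be read.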
